A study of Mus musculus with 4 samples.

Results

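The genes described here are the Wnt ligands, their receptors, the secreted Wnt antagonists and the closest regulators of the pathway: R-spondins, LGR receptors, the ligases Znrf3 and Rnf43, the Axins and the TCF/LEF factors. They were chosen by gene symbol among the protein-coding rows of the deposited table, and number 58 of the 50600 genes listed. The study measured RNA in Py8119, which the labels describe as a mesenchymal-like line from the mammary gland of C57BL/6 mice. One group of 2 libraries overexpressed Mtss1, which encodes an actin-binding, membrane-bending scaffold protein, and the other group of 2 libraries, titled hygro, was the control. Both populations grew in the same serum-containing medium and neither was treated. The labels name no promoter for the introduced gene, and do not say whether a population was 1 clone or how its 2 libraries were obtained. The p-values therefore reflect the scatter among 4 libraries, possibly technical alone.

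Wnt proteins are lipid-modified ligands that bind Frizzled receptors. With the co-receptors Lrp5 and Lrp6 they stabilise beta-catenin, which then activates genes through TCF/LEF factors; through Ror and Ryk receptors they also signal without beta-catenin. R-spondins, bound by LGR receptors, protect Frizzled proteins from the ligases Znrf3 and Rnf43, while Sfrp, Dkk and Wif1 proteins block ligands or co-receptors outside the cell. In the mammary gland Wnt signalling is known for its part in branching and in the upkeep of basal stem cells.

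Values were read as CPM, read counts brought to a common library size, though the scaling is not described. They summed to 982877 and 991293 in the overexpression libraries and to 1009970 and 1016225 in the control libraries. The 2 Mtss1 overexpression libraries held 15594210 and 16656639 recovered reads and the 2 control libraries 20617789 and 22081640. Mtss1 itself was at 118 and 119 CPM in the overexpression libraries, against 54.5 and 50.5 CPM in the control libraries (log2 fold change 1.16 ± 0.05, SE; limma adjusted p = 4.78e-15). Across genes the Pearson correlation of log2(CPM + 1) rounded to 0.997 within each group and to 0.957 for the closest pair between groups, as a description of these libraries. All 8 mesenchymal markers examined were above the filter described below: 4 were higher with overexpression (Prrx1, Col1a1, Twist1 and Zeb1), 3 lower (Fn1, Cdh2 and Zeb2) and Vim did not pass, with a median log2 fold change of 0.08. Their summed levels, mostly Fn1 and Vim, were 12720 and 12880 CPM with overexpression and 14550 and 14680 CPM in control. Of 8 epithelial markers 6 were under it, with Epcam, Krt5 and Cldn7 at 0 in all 4 libraries, and the keratin genes Krt8 and Krt18 were lower with overexpression; the summed levels were 601 and 603 CPM with overexpression and 849 and 893 CPM in control. Of the 24 immune, endothelial, adipocyte and neural markers examined, 4 were above it. Among these Fabp4, a fatty acid carrier also made outside fat cells, was at 83.1 and 83.3 CPM with overexpression and at 38.6 and 34.9 CPM in control. The summed levels of the 9 immune markers were 6.52 and 9.02 CPM with overexpression and 9.13 and 8.61 CPM in control, and those of the 6 endothelial markers were 1.64 and 2.08 CPM with overexpression and 1.71 and 1.66 CPM in control; Cd3e, Itgam, Adipoq, Rbfox3 and Snap25 were listed at 0 throughout. The part of these markers in the results below was not tested, and in bulk RNA fewer cells of a type and less RNA per cell cannot be told apart.

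Wnt pathway genes changed in both directions with Mtss1 overexpression. Of the 58 genes, 22 reached 1 CPM in at least 2 libraries and were tested with limma; 11 were higher, 5 lower and 6 did not pass at a Benjamini-Hochberg adjusted p of 0.05. That is 72.7% of the genes tested, against 66.1% of all 12510 genes tested in the table, so the share called was close to the background. In that background 31.9% were higher and 34.2% lower. At an adjusted p of 0.01, 10 were higher and 3 lower, where 56.3% of all tested genes were called, and without control 2 the number lower was 2. Log2 fold changes are of CPM + 1, Mtss1 overexpression minus control, and understate the change of low genes. Their median over the 22 genes was 0.12, beside -0.01 over all tested genes, and the median size without regard to sign was 0.47 beside 0.28. For 18 of the 22 genes both overexpression libraries lay on the same side of both control libraries, as for 81.6% of all tested genes. A rise of at least 1 on the log2 scale was reached by 4 of the 22 genes (Fzd4, Wnt6, Wnt9a and Sfrp1), against 4.44% of all tested genes, though Wnt6 passed the filter through the overexpression libraries alone. A fall of that size was reached by 0 of the 22, against 3.83% of all.

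**Figure D1:**
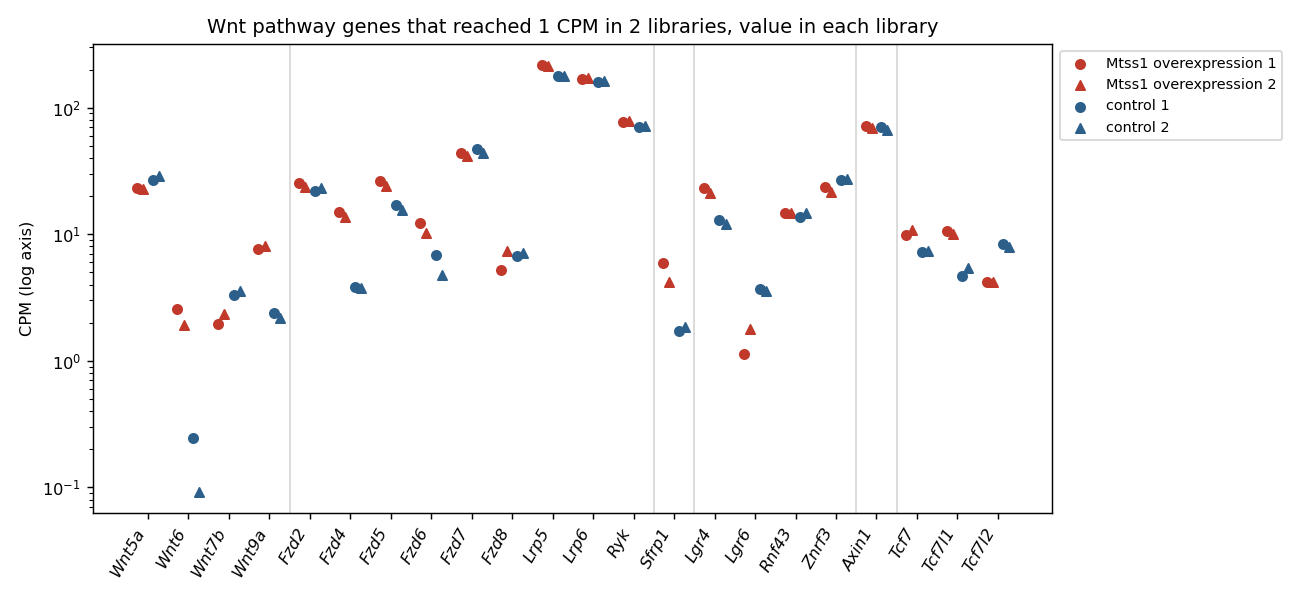
CPM on a log axis for the 22 tested genes, ordered by role from ligands at the left to TCF factors at the right, with 1 point per library (red, Mtss1 overexpression; blue, control). The groups stand apart most for Wnt6, Wnt9a, Fzd4 and Sfrp1, and lie together for Axin1, Rnf43, Fzd8 and Fzd7.

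**Figure D2:**
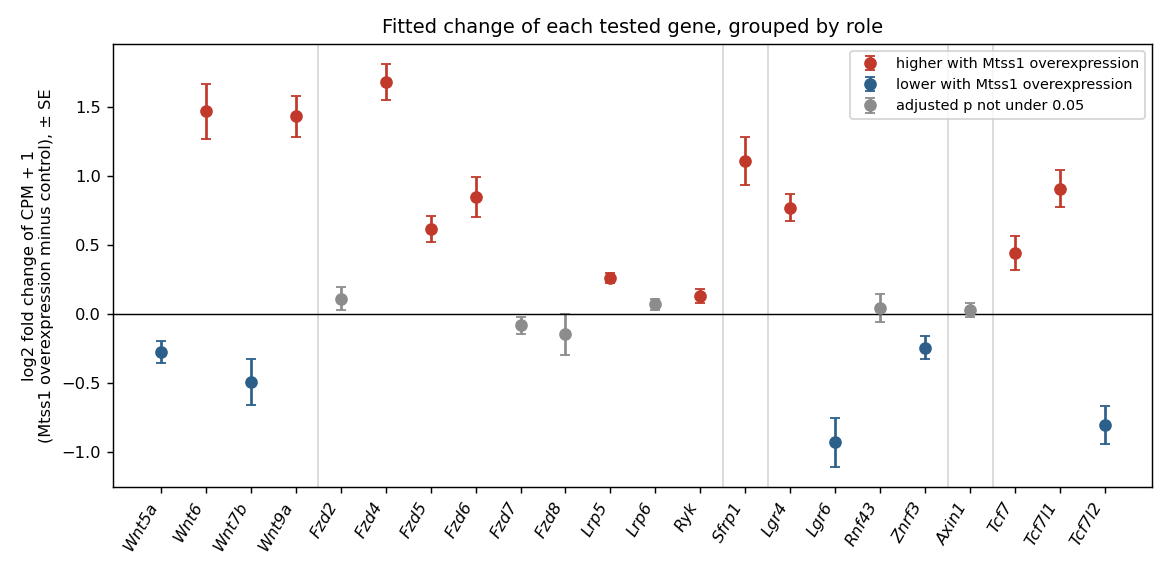
Log2 fold change of CPM + 1 (Mtss1 overexpression minus control) with its standard error for the same genes, coloured by whether the adjusted p was under 0.05. On this scale, which understates the changes of low genes such as Wnt6, Fzd4 has the largest rise (1.68) and Lgr6 the largest fall (-0.93).

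The promoters of the genes with the largest changes are shown to let their letters be set beside the values. They are the 250 bases before the RefSeq start of Fzd4, Wnt6 and Wnt9a, the 3 largest rises, and of Lgr6 and Tcf7l2, the 2 largest falls, read 5′ to 3′ on the gene's own strand from the RefSeq table of build GRCm38.p6. Capitals mark GC boxes (GGGCGG on either strand), the letters TATAA on either strand and matches to an NF-kB consensus on either strand. That consensus was taken as GGGRNNYYCC, where R is A or G, Y is C or T and N is any base. It was included because the title of the study names p65, an NF-kB subunit. No promoter is shown for Wnt7b.
Fzd4 promoter: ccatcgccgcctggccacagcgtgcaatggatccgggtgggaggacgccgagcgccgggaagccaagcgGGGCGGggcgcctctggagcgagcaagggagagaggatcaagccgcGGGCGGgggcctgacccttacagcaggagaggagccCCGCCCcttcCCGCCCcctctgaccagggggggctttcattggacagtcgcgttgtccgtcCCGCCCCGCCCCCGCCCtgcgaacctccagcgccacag
Wnt6 promoter: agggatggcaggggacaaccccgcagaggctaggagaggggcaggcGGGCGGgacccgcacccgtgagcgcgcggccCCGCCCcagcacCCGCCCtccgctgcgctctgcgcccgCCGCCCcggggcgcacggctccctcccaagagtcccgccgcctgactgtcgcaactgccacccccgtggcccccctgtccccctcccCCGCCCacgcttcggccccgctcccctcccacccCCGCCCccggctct
Wnt9a promoter: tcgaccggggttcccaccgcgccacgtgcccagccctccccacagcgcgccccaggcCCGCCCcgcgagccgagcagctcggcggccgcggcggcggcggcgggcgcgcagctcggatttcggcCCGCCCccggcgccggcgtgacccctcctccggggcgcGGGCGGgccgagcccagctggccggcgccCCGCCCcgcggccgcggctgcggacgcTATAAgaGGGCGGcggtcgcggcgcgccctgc
Lgr6 promoter: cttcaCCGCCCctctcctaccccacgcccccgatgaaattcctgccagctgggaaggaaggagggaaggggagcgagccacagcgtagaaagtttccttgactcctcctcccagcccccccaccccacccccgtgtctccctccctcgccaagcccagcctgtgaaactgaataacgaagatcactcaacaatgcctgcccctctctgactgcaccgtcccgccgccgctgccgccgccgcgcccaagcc
Tcf7l2 promoter: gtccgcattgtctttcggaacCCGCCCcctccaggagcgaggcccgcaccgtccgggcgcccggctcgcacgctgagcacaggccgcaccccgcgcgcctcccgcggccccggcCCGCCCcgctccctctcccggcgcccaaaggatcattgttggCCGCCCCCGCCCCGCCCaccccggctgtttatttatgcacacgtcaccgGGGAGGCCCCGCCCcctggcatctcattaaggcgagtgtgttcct
These lie at chr7:89404116-89404365 (plus strand) for Fzd4, chr1:74771642-74771891 (plus) for Wnt6, chr11:59306680-59306929 (plus) for Wnt9a, chr1:135105277-135105526 (minus) for Lgr6 and chr19:55741560-55741809 (plus) for Tcf7l2.

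All 5 were rich in G and C, between 65.2% in Lgr6 and 84.4% in Wnt9a. Counting overlapping matches, the 3 promoters of genes that rose held 7 (Fzd4), 6 (Wnt6) and 5 (Wnt9a) GC boxes, and those of the genes that fell held 1 (Lgr6) and 6 (Tcf7l2). TATAA was found in Wnt9a alone among the 5, from 32 to 28 bases before the start. In Tcf7l2 the NF-kB consensus matched at GGGAGGCCCC, from 45 to 36 bases before the start, on both strands of the same 10 letters, and shared 2 of them with a GC box from 37 to 32. Of the 22 tested genes, 12 had a promoter in the table. Among these, 10 (83.3%) held a GC box, against 32.7% of all 32851 promoters there, and 2 (16.7%, Fzd5 and Tcf7l2) held the NF-kB consensus, against 7.25%. A TCF/LEF core, with CTTTG followed by AT, TT, AA or TA on either strand, was found in 1 of the 12 (8.33%, Fzd7), against 14.8% of all. The TEAD motif GGAATG was found in 1 (8.33%, Lgr4), against 12.6%, and the AP-1 motif TGANTCA in 0, against 6.75%. The 12 promoters held a median of 28.5 CpG pairs (C followed by G), against 6.0 over all promoters. The sets compared thus differ in base composition, and the part of that in these shares was not tested. These are matches of letters within 250 bases, described without a test, and say nothing about binding.

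Among the ligands, Wnt9a and Wnt6 were higher and Wnt5a and Wnt7b lower with Mtss1 overexpression; the other 15 of 19 ligand genes were under the filter. Wnt9a (ENSMUSG00000000126, chromosome 11, 59306928 to 59333552, plus strand of mm10), known for its part in joint formation and blood stem cell development, was at 7.69 and 8.03 CPM with overexpression and at 2.40 and 2.16 CPM in control. Both overexpression libraries stood above both control libraries, by 3.45-fold between the means of 7.86 ± 0.244 and 2.28 ± 0.168 CPM (SD, n = 2 each). The log2 fold change was 1.43 ± 0.15 (SE; limma adjusted p = 1.84e-08) and was 0.82 with a pseudocount of 5.

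Wnt6 (chromosome 1, 74771892 to 74785322, plus strand), an epithelial ligand, was at 2.58 and 1.90 CPM with overexpression and at 0.245 and 0.092 CPM in control. These values rest on 41 and 32 reads in the overexpression libraries and on 5 and 2 reads in the control libraries. The ratio of reads per library size was 13.4, with an exact Clopper-Pearson 95% interval of 6.21 to 34.6 that covers counting error only. Wnt6 passed the filter through the overexpression libraries alone, so a difference was built into its selection; its log2 fold change of 1.47 ± 0.20 (limma adjusted p = 1.26e-06) became 3.68 with limma-voom, 3.17 with a pseudocount of 0.1 and 0.49 with one of 5. Without either overexpression library it was not tested.

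Wnt5a, the ligand best known for signalling without beta-catenin, had the highest level of the 19 genes per kilobase of exon, 2.92 CPM with overexpression and 3.56 CPM in control. It was at 23.0 and 22.6 CPM with overexpression and at 26.8 and 28.9 CPM in control, and fell (log2 fold change -0.28 ± 0.08, limma adjusted p = 0.00464). Without control 2 that call was lost (-0.22, limma adjusted p = 0.065). Wnt7b, an epithelial ligand known from branching organs, was at 1.95 and 2.32 CPM with overexpression, below 3.28 and 3.54 CPM in control, and fell by 0.49 ± 0.17 (limma adjusted p = 0.0128). Its call was lost without overexpression 1 (-0.41, limma adjusted p = 0.0873), without control 2 (-0.45, 0.0901) and with no filter on low values (0.0792), and its change was -0.24 with a pseudocount of 5. Summed over the 19 genes, ligand RNA per kilobase of exon was 7.54 and 7.04 CPM with overexpression and 5.17 and 5.47 CPM in control. On that scale Wnt9a stood at 0.785 and 0.835 of the level of Wnt5a with overexpression and at 0.210 and 0.176 of it in control.

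Most other ligand genes had few or no reads. Wnt2, Wnt3a, Wnt9b, Wnt11 and Wnt16 were listed at 0 in all 4 libraries, where 3 reads would give between 0.138 and 0.189 CPM. Wnt1 had 5 and 4 reads with overexpression and 0 and 0 in control. Wnt7a had 12 and 7 reads with overexpression and 1 and 7 in control, so its control 2 library equalled an overexpression library in reads. Wnt2b (7 and 2 reads with overexpression, 10 and 7 in control) and Wnt10b (4 and 5 reads with overexpression, 4 and 10 in control) overlapped between groups. Of the ligand genes nearest to those that rose, both had 1 read or none in every library: 6193 bases beyond Wnt6, Wnt10a had 0 and 0 reads with overexpression and 0 and 1 in control, and 16175 bases from Wnt9a, Wnt3a was listed at 0 throughout.

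**Figure D3:**
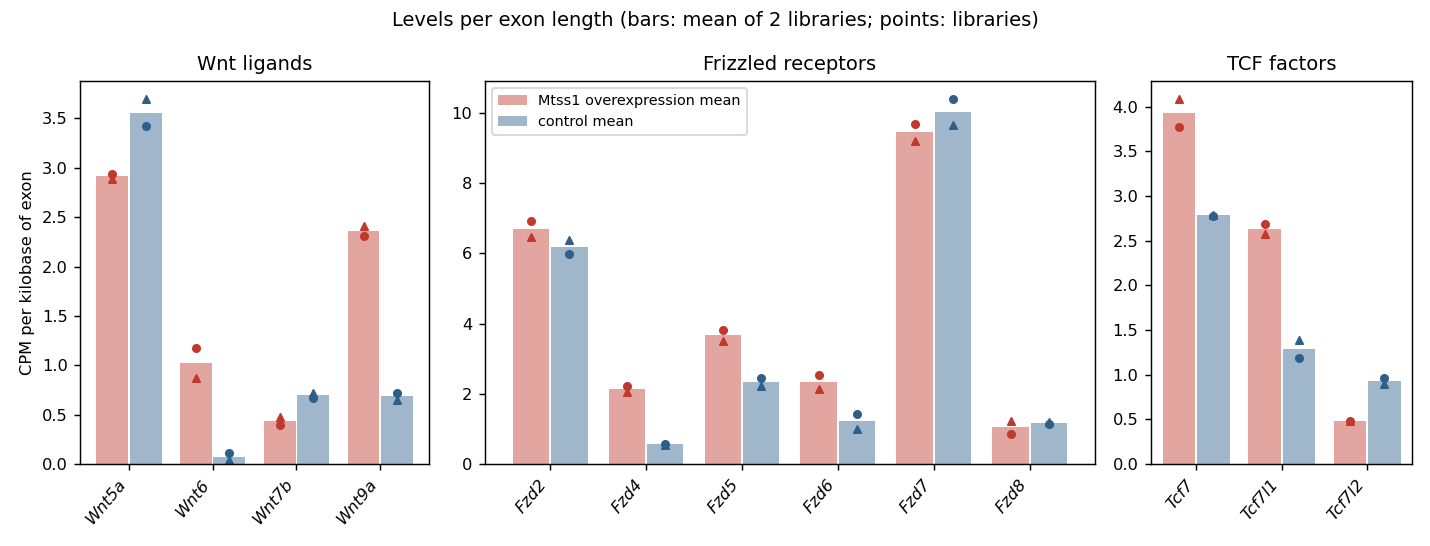
CPM per kilobase of exon for the tested Wnt ligands, Frizzled receptors and TCF factors; bars are means of 2 libraries and points the libraries (red, Mtss1 overexpression; blue, control). Fzd7 and Fzd2 are the highest Frizzled genes in both groups, and Tcf7l2 is the lowest TCF gene in both.

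Among the receptors, 5 of 9 tested genes rose and none of the 9 fell past the test: Fzd4, Fzd5, Fzd6, Lrp5 and Ryk were higher, and Fzd2, Fzd7, Fzd8 and Lrp6 did not pass. Over all tested genes 31.9% were higher and 34.2% lower. Fzd4 (ENSMUSG00000049791, chromosome 7, 89404355 to 89413134, plus strand), the receptor of Norrin as well as of Wnt ligands in blood vessels, whose promoter with 7 GC boxes is given above, changed most. It was at 14.9 and 13.7 CPM with overexpression and at 3.82 and 3.73 CPM in control, with a mean of 14.3 ± 0.842 against 3.77 ± 0.066 CPM (SD, n = 2 each) and a gap far wider than the spread of either group. The means differed 3.80-fold, a change of 1.68 ± 0.13 on the log2 scale (limma adjusted p = 1.16e-10).

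Fzd6, a receptor tied to planar cell polarity, was at 12.2 and 10.3 CPM with overexpression and at 6.91 and 4.79 CPM in control. The lower overexpression library stood above the higher control library, and the log2 fold change was 0.85 ± 0.15 (limma adjusted p = 2.38e-05). Fzd5, a receptor for canonical ligands, was at 26.5 and 24.2 CPM with overexpression and at 16.9 and 15.5 CPM in control (0.62 ± 0.09, limma adjusted p = 3.59e-06), again without overlap. The highest Frizzled gene per length, Fzd7, known as a receptor of mammary stem and basal-like tumour cells, was at 43.9 and 41.7 CPM with overexpression and at 47.1 and 43.8 CPM in control. Its libraries overlapped and the change of -0.08 ± 0.06 did not pass (limma adjusted p = 0.25). Fzd2 was at 25.3 and 23.7 CPM with overexpression and at 21.9 and 23.4 CPM in control (0.11 ± 0.08, limma adjusted p = 0.262). Fzd8 was at 5.17 and 7.32 CPM with overexpression and at 6.76 and 7.13 CPM in control, with its overexpression libraries on either side of the control ones (-0.15 ± 0.15, limma adjusted p = 0.389).

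Per kilobase of exon the order of the tested Frizzled genes in the overexpression group was Fzd7 (9.44 CPM), Fzd2 (6.69), Fzd5 (3.67), Fzd6 (2.33), Fzd4 (2.13) and Fzd8 (1.05). In control it was Fzd7 (10.0 CPM), Fzd2 (6.19), Fzd5 (2.34), Fzd6 (1.21), Fzd8 (1.16) and Fzd4 (0.562). Fzd4 was thus last in control and above Fzd8 with overexpression, while the neighbours Fzd6 and Fzd4 with overexpression, and Fzd6 and Fzd8 in control, overlapped between libraries. The ratio of Fzd4 to Fzd7 per length was 0.229 and 0.223 with overexpression and 0.055 and 0.057 in control. Summed over all 10 Frizzled genes the level per kilobase was 26.1 and 24.6 CPM with overexpression and 22.1 and 21.2 CPM in control. Of the other 4 Frizzled genes, Fzd3 and Fzd10 were listed at 0 throughout, Fzd1 had between 0 and 7 reads in a library, and Fzd9 had 1 and 0 reads with overexpression against 4 and 6 in control.

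The co-receptor gene Lrp5 had the highest mean level per kilobase of exon of the 58 genes in both groups, 21.96 CPM with overexpression and 18.3 CPM in control, though Axin1 stood slightly above it in control 1. It was at 216 and 212 CPM with overexpression and at 177 and 179 CPM in control, and rose by 0.26 ± 0.04 (limma adjusted p = 2.15e-06). Lrp6 was at 167 and 170 CPM with overexpression and at 161 and 161 CPM in control (0.07 ± 0.04, limma adjusted p = 0.122); it passed when each library was scaled to its own total (0.11, 0.0177). Ryk, a receptor with an inactive kinase domain that binds Wnt proteins, was at 77.7 and 78.1 CPM with overexpression and at 70.9 and 71.3 CPM in control. This rise of 0.13 ± 0.05 (limma adjusted p = 0.0233) is the smallest that passed, and the call was lost on leaving out any 1 library (0.13 without overexpression 1, limma adjusted p = 0.0567; 0.13 without overexpression 2, 0.0691; 0.13 without control 1, 0.095; 0.13 without control 2, 0.0759). Ror1, a receptor for Wnt5a, stayed under the filter with 14 and 11 reads with overexpression and 3 and 4 in control, a ratio of 4.61 (exact 95% interval 1.94 to 12.6, counting error only), and Ror2, its close relative, was listed at 0 throughout.

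Secreted antagonists were scarce in both groups. Sfrp1, a Frizzled-like decoy that binds Wnt proteins, was the 1 gene of 9 above the filter. It was at 5.92 and 4.17 CPM with overexpression and at 1.71 and 1.84 CPM in control. Both overexpression libraries lay above both control libraries, with a wider spread between them (mean 5.05 ± 1.24 against 1.78 ± 0.089 CPM; SD, n = 2 each), and the log2 fold change was 1.11 ± 0.17 (limma adjusted p = 7.32e-06), or 0.56 with a pseudocount of 5. Dkk1, Dkk2, Dkk4 and Sfrp5, antagonists of co-receptors or ligands, were listed at 0 in all 4 libraries. Dkk3 had 2 and 2 reads with overexpression and 2 and 8 in control, Sfrp4 had 2 and 3 with overexpression and 4 and 6 in control, Sfrp2 had 0 and 1 with overexpression and 0 and 0 in control, and Wif1 had 0 and 0 with overexpression and 1 and 1 in control. The highest level of these genes in any library was 0.368 CPM.

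Genes that control Frizzled turnover moved both ways. The 4 R-spondin genes had at most 4 reads in a library: Rspo1 had 4 and 0 reads with overexpression and 0 and 0 in control, Rspo4 had 0 and 1 with overexpression and 0 and 0 in control, and Rspo2 and Rspo3 were listed at 0. Lgr4, the broadly expressed R-spondin receptor, was at 23.0 and 21.1 CPM with overexpression and at 13.0 and 12.1 CPM in control. It rose by 0.77 ± 0.10 (limma adjusted p = 4.09e-07), with no overlap. Lgr6, a receptor known as a stem cell marker of skin, went the other way. It was at 1.13 and 1.79 CPM with overexpression and at 3.72 and 3.59 CPM in control, from 18 and 30 reads with overexpression and 76 and 78 in control, and fell by 0.93 ± 0.18 (limma adjusted p = 8.96e-05; -0.42 with a pseudocount of 5). Lgr5, the stem cell marker of the gut, was listed at 0 throughout. Per kilobase of exon, Lgr4 stood 23.6 and 13.8 times above Lgr6 with overexpression and 4.06 and 3.91 times above it in control.

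The ligase Znrf3, which removes Frizzled receptors from the membrane, was at 23.5 and 21.5 CPM with overexpression and at 26.6 and 27.2 CPM in control, and fell by 0.25 ± 0.08 (limma adjusted p = 0.0116). Its call was lost without overexpression 2 (-0.19, limma adjusted p = 0.0926) and without control 2 (-0.23, 0.0564). Rnf43, the related ligase, was at 14.6 and 14.6 CPM with overexpression and at 13.7 and 14.6 CPM in control (0.04 ± 0.10, limma adjusted p = 0.726). Axin1, the scaffold of the complex that degrades beta-catenin, was at 71.2 and 68.5 CPM with overexpression and at 70.0 and 66.9 CPM in control, with overlapping libraries (0.03 ± 0.05, limma adjusted p = 0.647).

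Axin2, the related scaffold whose gene is a widely used readout of beta-catenin activity, was under the filter, with 0.139 CPM per kilobase of exon with overexpression and 0.043 in control beside 18.2 with overexpression and 17.9 in control for Axin1. It was at 0.756 and 0.774 CPM with overexpression and at 0.147 and 0.322 CPM in control, from 12 and 13 reads with overexpression and 3 and 7 in control. The groups did not overlap, and the ratio of reads was 3.23 (exact 95% interval 1.496 to 7.52, counting error only). With no filter on low values 22310 genes were tested, of which 35.4% were called, and Axin2 (0.52 ± 0.11, limma adjusted p = 0.0145), Ror1 (0.60 ± 0.11, 0.00707) and Wnt1 (0.35 ± 0.07, 0.00963) were higher and Fzd9 (-0.26 ± 0.07, 0.0377) lower, though Wnt1 and Fzd9 rest on at most 6 reads in a library.

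**Figure D4:**
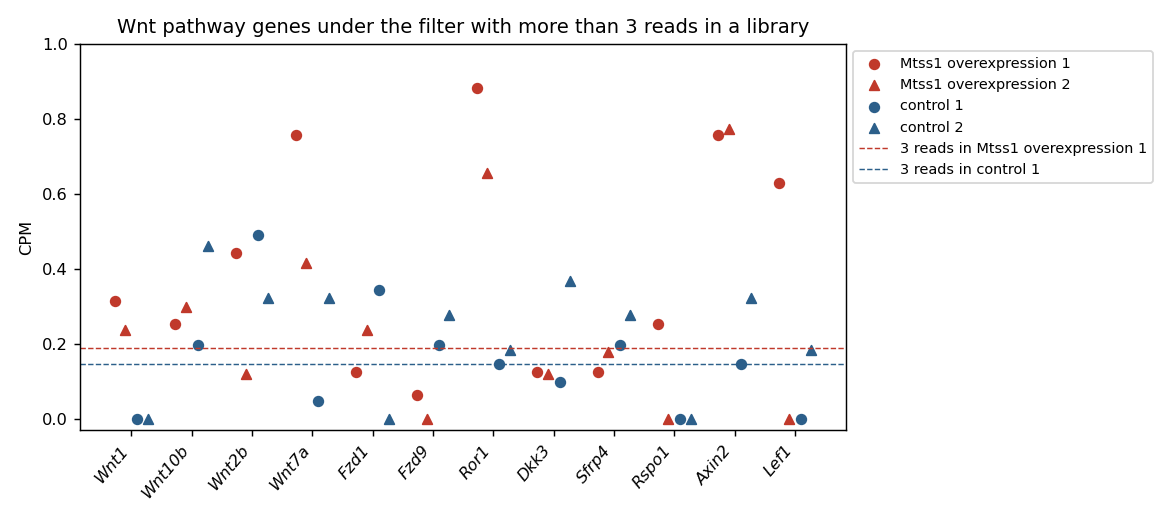
CPM of the 12 Wnt pathway genes that stayed under the filter but had more than 3 reads in a library, by library (red, Mtss1 overexpression; blue, control), with dashed lines at the CPM of 3 reads in the first library of each group. Ror1, Axin2, Wnt1 and Wnt7a have both red points above both blue points, and Fzd9 and Sfrp4 have both blue points above both red points. Lef1 has 1 overexpression library at 0.630 CPM and the other at 0.

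The TCF factors, which carry beta-catenin to DNA, changed in opposite directions. Tcf7l1, known mainly as a repressor of Wnt target genes in stem cells, was at 10.5 and 10.1 CPM with overexpression and at 4.65 and 5.43 CPM in control. It rose by 0.91 ± 0.13 (limma adjusted p = 2.77e-06), with no overlap. Tcf7, which encodes TCF1, was at 9.90 and 10.7 CPM with overexpression and at 7.30 and 7.32 CPM in control (0.44 ± 0.12, limma adjusted p = 0.00312). Tcf7l2 (ENSMUSG00000024985, chromosome 19, 55741820 to 55933654, plus strand), which encodes TCF4 and whose promoter with the NF-kB match is given above, was at 4.22 and 4.23 CPM with overexpression and at 8.43 and 7.87 CPM in control. Its means of 4.22 ± 0.0018 and 8.15 ± 0.393 CPM (SD, n = 2 each) were 1.93-fold lower with overexpression, with a change of -0.81 ± 0.14 (limma adjusted p = 2.18e-05; -0.51 with a pseudocount of 5).

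Per kilobase of exon, Tcf7l1 stood at 5.57 and 5.35 times Tcf7l2 with overexpression and at 1.24 and 1.54 times in control, and Tcf7 at 7.83 and 8.47 times Tcf7l2 with overexpression and 2.90 and 3.11 times in control. The order Tcf7, Tcf7l1, Tcf7l2 was the same in both groups and all 4 libraries. Lef1, the fourth gene of the family, had 10 and 0 reads with overexpression and 0 and 4 in control, with 1 library of each group at 0. Summed over the 4 genes, the level per kilobase was 7.005 and 7.14 CPM with overexpression and 4.93 and 5.09 CPM in control.

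Of 12 tested genes that carry Wnt ligands out of the cell or modify them at its surface, 5 were higher and 5 lower, beside 31.9% higher and 34.2% lower over all tested genes, with a median log2 fold change of 0.10 beside -0.01. Porcn, which attaches the lipid to Wnt proteins, was at 6.30 and 7.86 CPM with overexpression and at 3.72 and 4.004 CPM in control (0.73 ± 0.15, limma adjusted p = 1.78e-04; 0.44 with a pseudocount of 5). Wls, which escorts lipid-bearing Wnt proteins to the surface, was at 251.2 and 265.6 CPM with overexpression and at 374 and 355 CPM in control, and fell by 0.50 ± 0.04 (limma adjusted p = 1.33e-10). Kremen1, a receptor for Dkk proteins, was at 68.6 and 63.3 CPM with overexpression and at 38.4 and 39.6 CPM in control (0.74 ± 0.06). The inhibitor gene Apcdd1 was at 9.45 and 8.63 CPM with overexpression and at 4.997 and 4.19 CPM in control (0.85 ± 0.14; 0.55 with a pseudocount of 5), and the glypican gene Gpc4 at 64.2 and 63.9 CPM with overexpression and 38.6 and 37.9 CPM in control (0.73 ± 0.06). Notum, which removes the lipid, stayed under the filter.

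Of 30 tested genes for beta-catenin, its destruction complex and cytoplasmic transducers, 13 were higher, 9 lower and 8 did not pass, with a median of 0.06; called in either direction were 22, where 66.1% of all tested genes were. Ctnnb1, which encodes beta-catenin, was at 391.8 and 395.8 CPM with overexpression and at 518 and 532 CPM in control, and fell by 0.41 ± 0.03 (limma adjusted p = 3.01e-10). Dvl1, an adaptor that relays the signal from Frizzled receptors, was at 247 and 226 CPM with overexpression and at 126 and 128 CPM in control (0.89 ± 0.04, limma adjusted p = 3.44e-14). Gsk3b, the kinase that marks beta-catenin for degradation, was at 94.0 and 96.4 CPM with overexpression and at 97.3 and 92.9 CPM in control (0.0025 ± 0.046, limma adjusted p = 0.965). Apc, a scaffold of the same complex, was at 138 and 132 CPM with overexpression and 132 and 133 CPM in control (0.03 ± 0.04, limma adjusted p = 0.596). Its relative Apc2 had 34 and 32 reads with overexpression and 1 and 0 in control, a ratio of 85.1 (exact 95% interval 14.8 to 3413, counting error only). Dact3 was at 11.3 and 13.5 CPM with overexpression and 5.98 and 7.36 CPM in control (0.81 ± 0.13), and Siah1a, a ubiquitin ligase gene, at 14.3 and 14.0 CPM with overexpression and 25.2 and 22.4 CPM in control (-0.71 ± 0.09). Apc2 passed the filter through the overexpression libraries alone, and its log2 fold change of 1.56 ± 0.20 became 5.64 with limma-voom, 4.12 with a pseudocount of 0.1 and 0.48 with one of 5.

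Of 20 tested nuclear cofactors of the TCF/LEF factors, 5 were higher, 6 lower and 9 did not pass, with a median of -0.04, where 66.1% of all tested genes were called; the number higher was 3 without control 1. Ep300, a histone acetyltransferase recruited by beta-catenin, was at 141 and 148 CPM with overexpression and at 208 and 226 CPM in control (-0.58 ± 0.04, limma adjusted p = 6.32e-11). The genes of the corepressors Tle2 (-0.46 ± 0.12) and Tle3 (-0.33 ± 0.06) and the transcription factor gene Tfap4 (-0.41 ± 0.11) were also lower. In the same corepressor family Aes, named after its values were seen, was higher, at 285.7 and 284.4 CPM with overexpression and 243.1 and 244.1 CPM in control (0.23 ± 0.04, limma adjusted p = 6.91e-06), and Tle1 and Tle4 did not pass. The others called higher were Pygo2, Tbl1xr1, Ctbp2 and Smarca4.

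Of 12 planar cell polarity genes tested, 3 were higher, 3 lower and 6 did not pass, with a median of 0.05, a smaller share called than the 66.1% of all tested genes. Ptk7, a membrane co-receptor of Wnt and polarity signals, was at 106 and 108 CPM with overexpression and at 35.5 and 36.3 CPM in control (1.55 ± 0.05, limma adjusted p = 6.5e-17). Ankrd6 was at 4.54 and 5.36 CPM with overexpression and at 1.27 and 1.29 CPM in control (1.38 ± 0.17; 0.66 with a pseudocount of 5). Prickle1 had 18 and 24 reads with overexpression and 3 and 3 in control, a ratio of 9.03 (exact 95% interval 3.82 to 25.99, counting error only), and passed the filter through the overexpression libraries alone (0.99 ± 0.21; 2.98 with limma-voom, 2.50 with a pseudocount of 0.1 and 0.29 with one of 5). Wdpcp, which acts in cilia and polarity, was at 7.50 and 7.32 CPM with overexpression and at 17.2 and 16.4 CPM in control (-1.08 ± 0.11).

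Of 24 tested genes often used as targets of beta-catenin and TCF, 8 were higher and 12 lower (31.9% and 34.2% of all tested genes were), with a median of -0.18; the number higher was 4 without overexpression 1 and 5 without overexpression 2. Many of these genes also answer to other pathways. Fosl1, an AP-1 subunit gene, was at 71.7 and 72.4 CPM with overexpression and at 182 and 193 CPM in control (-1.37 ± 0.04, limma adjusted p = 2.39e-17). The matricellular gene Wisp2 was at 1.32 and 0.893 CPM with overexpression and 8.96 and 8.74 CPM in control (-2.23 ± 0.16; -1.18 with a pseudocount of 5), and the ephrin receptor gene Ephb3 at 2.14 and 1.84 CPM with overexpression and 6.52 and 6.35 CPM in control (-1.31 ± 0.16; -0.71 with a pseudocount of 5). Tiam1, an activator of Rac, was at 13.2 and 10.7 CPM with overexpression and at 0.294 and 0.368 CPM in control, and also passed the filter through the overexpression libraries alone (3.27 ± 0.17; 5.06 with limma-voom and 1.66 with a pseudocount of 5). So did Edn1, also called higher, at 1.51 and 1.13 CPM with overexpression and 0.294 and 0.230 CPM in control. With 1 CPM required in all libraries, 21 genes of the list were tested, of which 6 were higher and 11 lower. Apcdd1, described above, is counted in this list too. Ccnd1, the cyclin D1 gene, fell by 0.23 ± 0.03 and Myc by 0.19 ± 0.04, while Cd44 rose by 0.33 ± 0.04 and Bmp4 by 0.70 ± 0.05. Also in the list, Twist1, Birc5 and Jag1 were higher and Wisp1, Jun, Sox9, Plaur, Msx1, Msx2 and Tbx3 lower. All of these, with Edn1, were named after their values were seen. Nkd1, Sp5 and Ascl2, often taken as narrow readouts of the pathway, had at most 1 read in a library.

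**Figure D5:**
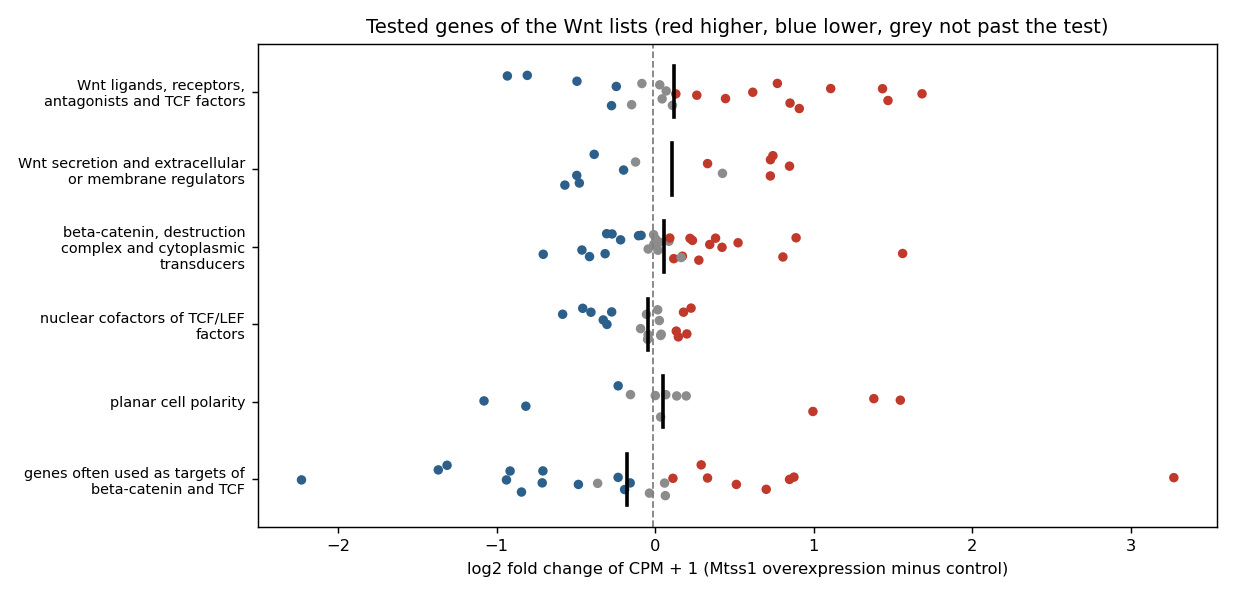
Log2 fold change of CPM + 1 (Mtss1 overexpression minus control) of each tested gene, by list; black bars are list medians and the dashed line the median of all tested genes (-0.01). Each list holds genes on both sides of 0, and the target gene list has the widest range, from Wisp2 (-2.23) to Tiam1 (3.27).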

How the data were processed

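RNA of 2 Mtss1 overexpression and 2 control libraries was analysed from the table of gene values the authors deposited. The deposited values were read as CPM from their totals (982877 to 1016225 per library); the scaling is not described there. STAR, RSEM, FastQC 0.11.2 and build mm10 are named, with no roles, per the submitters' processing notes. Values were multiples of a step, the CPM of 1 read, with 79.6% to 80.5% of nonzero values whole within 0.005 read; reads are values divided by the step. Coordinates and exon lengths (union of all exons) come from GENCODE M21, where chromosomes were the same for all 35621 genes compared.

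Genes reaching 1 CPM in 2 or more libraries were tested with limma 3.58.1 in R 4.3.3 (eBayes with trend) on log2(CPM + 1), adjusted by Benjamini-Hochberg over all tested genes. The steps were run on simulated data in which far fewer genes changed than were called here. That run does not measure the error rate for these data. Residual degrees of freedom were 2, and the prior added 20. Within groups, libraries differed by 1.77 and 2.03 times the Poisson value (median chi-square), so both were kept. No 100-base stretch was shared between transcripts of the 58 genes. Annotated genes overlapping exons of tested genes read at most 0.774 CPM; strand use in counting is not given.

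Every tested gene of the 58 is named. Some marker genes are not reported here. In each pathway list up to 4 genes are named, those with the largest called changes and no overlap, besides Mtss1, Ctnnb1, Gsk3b, Apc, Porcn and Wls. Other genes named were chosen after their values were seen. The 58 genes follow from a rule on symbols that uses no values, but that rule, the lists and the motifs were chosen with earlier results of these data known, so no set test was made. Alternatives were limma-voom on recovered reads, other scalings, filters, pseudocounts, an adjusted p of 0.01, the replicate number as a block, and leaving out each library.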

Additional observations from a re-analysis of the deposited data

How the results depend on the processing

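The counts of Wnt pathway genes called were 11 higher and 5 lower, and under alternatives 9 to 14 higher and 2 to 5 lower. At an adjusted p of 0.01, 10 were higher and 3 lower. Leaving out each library gave 9 to 10 higher and 2 to 5 lower, with 2 lower without control 2. With no filter the cofactor list had 3 genes higher in place of 5; leaving out libraries gave 3 to 5 there, and 4 to 6 in place of 8 among target genes. Over all genes, 3317 to 4362 were higher and 3621 to 4337 lower. Of the recomputed changes of named genes, 578 kept direction and side of the threshold, 13 lost and 1 gained a call, and 6, none called, turned sign: on leaving out a library, Axin1 ranged from -0.0037 to 0.060, Fzd8 from -0.37 to 0.067, Rnf43 from -0.00031 to 0.087, Gsk3b from -0.031 to 0.036 and Apc from -0.0019 to 0.054. The cause was not tested. Wnt6, Apc2, Prickle1 and Tiam1 gave no value with 1 CPM required in all libraries or without either overexpression library, nor Wisp2 with 1 CPM in all, since they then miss the filter. With the replicate number as a block, 11 genes were higher and 5 lower, and no call on a named gene changed; deviations of same-numbered libraries correlated at -0.02 across genes, and the labels give the numbers no meaning. With 15594210 to 22081640 reads per library, genes below 0.138 to 0.189 CPM rest on fewer than 3 reads. Groups of 2 libraries were too small to look for single outlying libraries.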
